A study of Mus musculus with 8 samples.

Results

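The TNF ligand and receptor genes described here are 10 genes of the TNF superfamily and the TNF receptor superfamily measured by RNA-Seq in mouse bone marrow-derived macrophages (BMDMs). They were chosen by name, from 49315 genes counted in all, by matching Ensembl identifiers to gene symbols in GENCODE M21. They comprise 4 ligands (Tnf, Tnfsf9, Tnfsf12 and Tnfsf13b) and 6 receptors (Tnfrsf1a, Tnfrsf1b, Tnfrsf11a, Tnfrsf14, Tnfrsf26 and Ltbr), and all 10 passed the filter on low counts. BMDMs are primary macrophages, grown here from marrow of C57BL/6 mice with macrophage colony-stimulating factor at 10 ng/ml. They were transfected with a gapmeR, an antisense oligonucleotide that directs RNase H to a chosen RNA, at 25 nM according to the labels. One group of 4 libraries received a gapmeR against MAARS, a macrophage long noncoding RNA also named Gm14461, and the other 4 received a negative control gapmeR. The labels name no inflammatory stimulus for either group, and the comparison sets the macrophage transcriptome with the MAARS gapmeR against that with the control gapmeR. Effects of lower MAARS and other effects of the oligonucleotides cannot be told apart in this design.

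TNF is made as a protein of the cell surface, is cut free by the protease ADAM17, and binds TNFR1 (Tnfrsf1a) and TNFR2 (Tnfrsf1b). TNFR1 carries a death domain and assembles a complex that leads either to NF-kappaB and inflammatory genes or to cell death, while TNFR2 has no death domain and recruits TRAF proteins directly. Macrophages are a main source of TNF, and the Tnf message is short-lived because AU-rich motifs in its 3′ untranslated region (UTR) are bound by proteins that promote its decay.

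The sequence of the Tnf message most tied to its control is shown first, since Tnf had the largest change of the 10 genes. Tnf lies on chromosome 17 from 35199381 to 35202007 on the minus strand (GRCm38). The 30-base window of its 3′ UTR richest in the pentamer ATTTA, at chr17:35199679-35199708, held 5 copies, some of them overlapping, in capitals here:
Tnf AU-rich window: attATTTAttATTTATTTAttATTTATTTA
Over the whole 3′ UTR of 764 bases after the stop codon, the pentamer occurred 8 times and the nonamer TTATTTATT 5 times, both read on the message strand, with the nonamer containing the pentamer. Of the longest annotated 3′ UTRs of 11782 genes tested, 8.27% held the nonamer and 0.127% held at least as many copies as Tnf. Of the other 9 genes, Tnfsf13b had the nonamer once. Tnfrsf1a and Tnfrsf14 had no pentamer, and Tnfsf9, Tnfsf12, Tnfrsf1b, Tnfrsf11a, Tnfrsf26 and Ltbr had between 1 and 5.

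The promoters of Tnf and of its receptors are shown because Tnf and Tnfrsf1a were called lower and Tnfrsf1b was not called. Each runs from 250 bases before to 50 bases after the annotated start, on the strand of the gene, from RefSeq on GRCm38.p6. Capitals mark matches on either strand to the TATA motif (TATAAA), the interferon-stimulated element core (ISRE core, GAAANNGAA) and the gamma-activated site (GAS, TTCNNNGAA):
Tnf, chr17:35201958-35202257, minus strand: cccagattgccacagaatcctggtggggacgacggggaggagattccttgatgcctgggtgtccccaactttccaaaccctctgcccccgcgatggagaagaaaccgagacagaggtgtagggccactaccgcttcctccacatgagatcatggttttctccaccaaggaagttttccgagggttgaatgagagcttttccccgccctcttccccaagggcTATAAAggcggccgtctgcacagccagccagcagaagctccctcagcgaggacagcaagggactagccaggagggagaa
Tnfrsf1a, chr6:125349473-125349772, plus strand: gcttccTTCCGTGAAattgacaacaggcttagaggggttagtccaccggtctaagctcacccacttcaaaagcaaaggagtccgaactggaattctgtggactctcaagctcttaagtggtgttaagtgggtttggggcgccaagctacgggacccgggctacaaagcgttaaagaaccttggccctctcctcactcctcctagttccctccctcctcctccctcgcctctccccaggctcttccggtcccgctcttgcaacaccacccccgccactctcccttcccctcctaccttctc
Tnfrsf1b, chr4:145246821-145247120, minus strand: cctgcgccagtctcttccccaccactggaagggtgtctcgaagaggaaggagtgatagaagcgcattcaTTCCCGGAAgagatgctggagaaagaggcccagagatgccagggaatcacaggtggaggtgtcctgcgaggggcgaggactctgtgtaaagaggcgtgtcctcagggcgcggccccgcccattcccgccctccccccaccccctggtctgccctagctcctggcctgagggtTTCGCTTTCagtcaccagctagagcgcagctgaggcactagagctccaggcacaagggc
Tnf had a TATA match starting at position -29 from the start site, Tnfrsf1a a GAS match at -244, and Tnfrsf1b a GAS match at -181 and an ISRE core match at -9. Promoters of 7 of the 10 genes were in the RefSeq set. Among the other 4, Tnfrsf14 had an ISRE core match at -63, Tnfsf13b had matches to the ISRE core and to AP-1 (TGANTCA), and Tnfrsf11a and Ltbr had none. The kappaB consensus was in none of these windows. Of 32851 mouse promoters of this length, 13.6% held the TATA motif, 8.56% the ISRE core, 8.3% the GAS, 7.81% the AP-1 motif and 8.46% the kappaB consensus. A match is a description of letters and was not tested as a binding site.

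The MAARS gapmeR libraries were the deeper ones. Between 19287279 and 20567123 counts fell on genes in the control libraries and between 20839671 and 24541205 in the MAARS gapmeR libraries, and replicates of a group differed by far more than sampling noise, with a chi-square of 4.26 to 15.4 per gene. MAARS itself, the targeted RNA, had 12.2, 15.1, 13 and 12.2 CPM (counts per 1000000 counts of a library, TMM-normalized) in control replicates 2, 5, 6 and 7, and 7.7, 6.4, 7.3 and 5.84 CPM in MAARS gapmeR replicates 9, 11, 13 and 15. Its log2 fold change was -0.95 (SE 0.112, adjusted p = 5.8e-05 from edgeR). Of 13051 genes tested with edgeR's quasi-likelihood test, 3137 were lower (24.0%) and 2782 higher (21.3%) with MAARS gapmeR at an adjusted p under 0.05. When upper-quartile factors were used, the split turned to 2379 lower and 3622 higher. The 9 macrophage markers summed to 17494 to 21264 CPM in control and 20394 to 23396 CPM in MAARS gapmeR libraries. Of these 9 genes, 5 were called higher and 3 lower. Neutrophil markers summed to 71.8 to 209 CPM in control and 74.3 to 120 CPM in MAARS gapmeR libraries, and none was called. Of 5 T cell markers, only Cd4 passed the filter on low counts, and no NK cell marker did. The 3 NK cell markers summed to at most 0.0981 CPM in control and 0.216 CPM in MAARS gapmeR libraries. Cd3g and Gzma had no read in any library. Fibroblast or stromal markers, Col1a1 and Col1a2 among them, summed to 440 to 1009 CPM in control and 694 to 1198 CPM in MAARS gapmeR libraries, and were highest in control replicate 7 and MAARS gapmeR replicate 13. None of these 5 stromal genes passed the test, and their part in the results below was not tested. The 5 T cell markers summed to 65.9 to 85.4 CPM in control and 40.6 to 51.3 CPM in MAARS gapmeR libraries. Cd4 alone ranged over 65.8 to 85.4 and 40.5 to 51.3 CPM. Nearly all of the sum was thus Cd4, and its fall was not a fall of the other T cell markers. The 3 endothelial markers summed to 17.1 to 21.7 CPM in control and 7.57 to 8.55 CPM in MAARS gapmeR libraries. Of these, Kdr fell (log2 fold change -1.54, edgeR adjusted p = 4.19e-06). In bulk RNA, fewer cells of a type and less RNA per cell cannot be told apart.

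Tnf and 4 receptors fell with MAARS gapmeR, and none of the 10 genes was called higher. Tnf fell by 55.6% of its mean CPM, Tnfrsf26 by 36.8%, Tnfrsf11a by 23.8%, Tnfrsf1a by 19.3% and Ltbr by 13.6%. The 5 genes of 10 called lower stand beside 24.0% of all genes tested, and the 0 called higher beside 21.3%. In these 5 genes the highest of the 4 MAARS gapmeR values was below the lowest of the 4 control values, a pattern found in 22.9% of all genes tested. The median log2 fold change was -0.24 over the 10 genes and 0.0080 over all genes tested. Each of the 5 kept an adjusted p under 0.05 under every alternative run. With a fold change of at least 1.5 also required, Tnf and Tnfrsf26 remained of the 5.

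**Figure D1:**
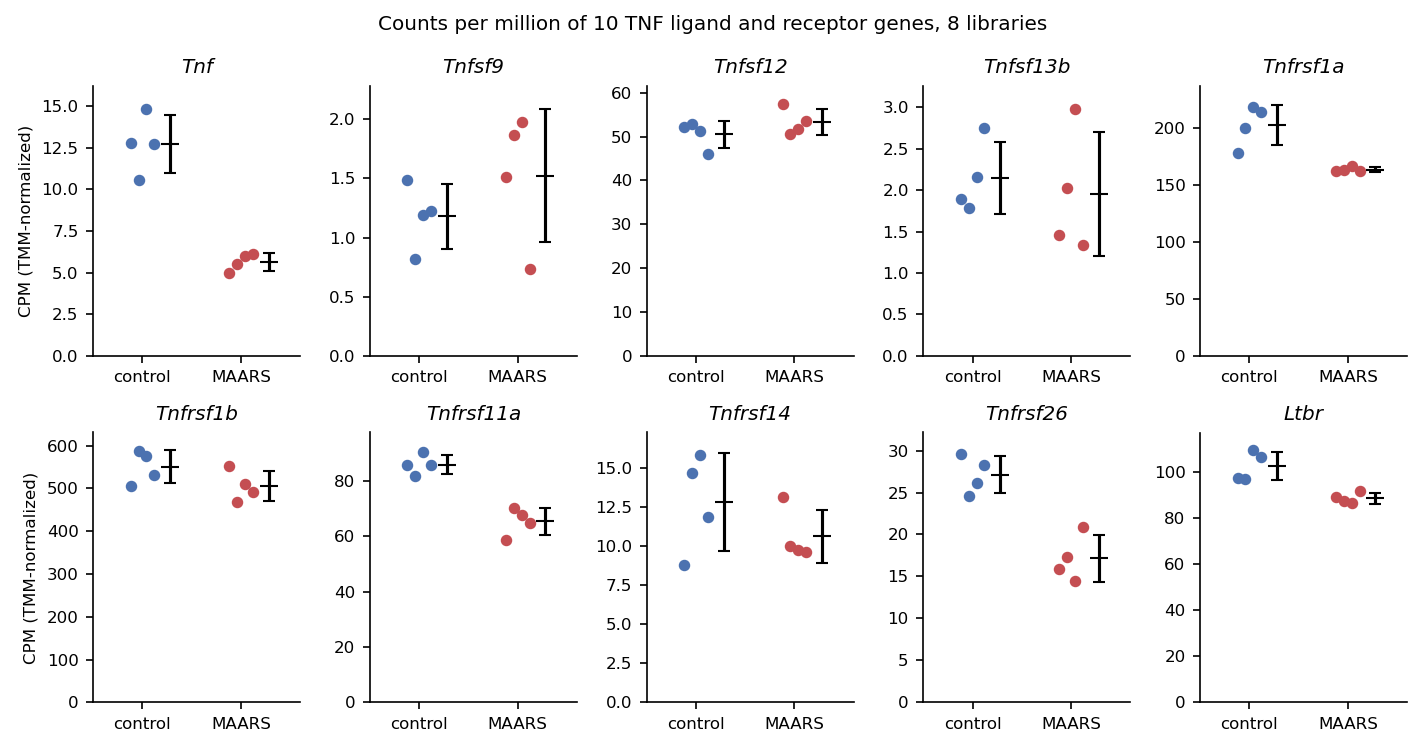
TMM-normalized CPM (vertical axes, each from 0) of the 10 genes in the 4 control gapmeR libraries (blue) and the 4 MAARS gapmeR libraries (red), with the mean and SD of each group in black. For Tnf the red points lie between 4.96 and 6.1 CPM, under all blue points, and for Tnfsf9, Tnfsf12, Tnfsf13b, Tnfrsf1b and Tnfrsf14 the groups overlap.

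Tnf, the founding ligand of the family, was the ligand that was called. It had 12.8, 10.6, 14.8 and 12.8 CPM in the control libraries and 4.96, 5.53, 6.01 and 6.1 CPM in the MAARS gapmeR libraries. The highest MAARS gapmeR library was at 6.1 CPM and the lowest control library at 10.6 CPM, so the groups stood well apart. These values rest on 208 to 274 counts per control library and 105 to 141 per MAARS gapmeR library. The mean went from 12.7 ± 1.72 to 5.65 ± 0.525 CPM (mean ± SD, n = 4), which was a log2 fold change of -1.17 (SE 0.118, adjusted p = 1.9e-05 from edgeR). No exon of Tnf overlaps another gene in the annotation. Across the alternatives, its log2 fold change stayed between -1.25 and -1.10.

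The other 3 ligands did not pass the test, and for 2 of them the counts were few. Tnfsf12 encodes TWEAK, a ligand of the receptor Fn14, and lies on chromosome 11 from 69686250 to 69695849 on the minus strand. It had 52.1, 52.9, 51.2 and 46.1 CPM in control and 57.5, 50.6, 51.6 and 53.5 CPM in MAARS gapmeR libraries. The ranges overlapped, and the log2 fold change was 0.08 with a 95% confidence interval from -0.05 to 0.21 (edgeR adjusted p = 0.321). Tnfsf12 shares 48.3% of its exonic bases with Tnfsfm13, a read-through gene on the same strand that joins Tnfsf12 to Tnfsf13, so reads could have been split between them. Summed over Tnfsf12, Tnfsf13 and Tnfsfm13, the level was 61.3 to 72.4 CPM in control and 67.4 to 78.4 CPM in MAARS gapmeR libraries, which also overlapped.

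Tnfsf9, a costimulatory ligand for T cells, lies on chromosome 17 from 57105325 to 57107757 on the plus strand and had 16 to 47 counts per library. It had 1.48, 0.815, 1.19 and 1.23 CPM in control and 1.51, 1.87, 1.97 and 0.736 CPM in MAARS gapmeR libraries. The MAARS gapmeR group held both the 3 highest values and the lowest value. The log2 fold change of 0.37 had an interval from -0.31 to 1.05 (edgeR adjusted p = 0.356), which holds both a rise and a small fall. The gene overlaps an exon of the antisense gene Gm11110 over 14.9% of its exon length.

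Tnfsf13b encodes BAFF, the survival factor of B cells, and lies on chromosome 8 from 10006467 to 10039072 on the plus strand. It had 1.89, 1.78, 2.16 and 2.75 CPM in control and 1.46, 2.03, 2.98 and 1.34 CPM in MAARS gapmeR libraries. Its highest library in each group, control replicate 7 and MAARS gapmeR replicate 13, was the one highest in stromal markers. The log2 fold change was -0.14 with an interval from -0.72 to 0.45 (edgeR adjusted p = 0.699), and it was 0.0062 without control replicate 7 and 0.0078 without MAARS gapmeR replicate 15.

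Of the receptors of TNF itself, Tnfrsf1a passed the test and Tnfrsf1b did not. Tnfrsf1a, encoding TNFR1, lies on chromosome 6 from 125349362 to 125362484 on the plus strand. It had 179, 200, 219 and 214 CPM in control and 163, 163, 167 and 162 CPM in MAARS gapmeR libraries. All MAARS gapmeR libraries were lower than all controls, and their spread was narrow. The mean went from 203 ± 17.9 to 164 ± 2.06 CPM (mean ± SD, n = 4), which was a log2 fold change of -0.31 (SE 0.0597, adjusted p = 0.00154 from edgeR).

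Tnfrsf1b, encoding TNFR2, lies on chromosome 4 from 145213463 to 145246870 on the minus strand. It had 506, 588, 576 and 531 CPM in control and 553, 469, 509 and 492 CPM in MAARS gapmeR libraries. The groups overlapped, with control replicate 2 under MAARS gapmeR replicates 9 and 13. The log2 fold change of -0.12 had an interval from -0.26 to 0.02 (edgeR adjusted p = 0.143), which overlaps the interval of Tnfrsf1a, from -0.44 to -0.18. Per exon length, the ratio of Tnfrsf1b to Tnfrsf1a was 1.68 to 1.99 in control and 1.95 to 2.3 in MAARS gapmeR libraries, so the ranges of the ratio met. The change in this ratio, which is the difference between the changes of the 2 receptors, did not pass 0.05 (two-sided exact permutation test, p = 0.0571), so they were not shown to differ in response.

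The other receptors included the remaining 3 that fell. Ltbr, the lymphotoxin beta receptor, lies on chromosome 6 from 125306571 to 125313885 on the minus strand, 35476 bases from Tnfrsf1a. It had 97.6, 97.1, 109 and 107 CPM in control and 89.3, 87.3, 86.4 and 91.7 CPM in MAARS gapmeR libraries. The gap between the groups was small beside that of Tnf, and the log2 fold change was -0.21 (SE 0.0505, adjusted p = 0.00556 from edgeR). Of the 5 genes that fell, Ltbr came closest to losing its call, with an adjusted p of 0.031 with upper-quartile factors and 0.0468 without control replicate 7 and MAARS gapmeR replicate 13 (both edgeR).

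Tnfrsf11a encodes RANK, the receptor of the osteoclast differentiation factor RANKL, and lies on chromosome 1 from 105780718 to 105847981 on the plus strand. It had 85.6, 81.7, 90.4 and 85.9 CPM in control and 58.8, 70.3, 67.7 and 65.0 CPM in MAARS gapmeR libraries. The groups did not overlap, and the mean went from 85.9 ± 3.55 to 65.4 ± 4.93 CPM (mean ± SD, n = 4), which was a log2 fold change of -0.39 (SE 0.059, adjusted p = 0.000298 from edgeR). Of 5 osteoclast markers, Atp6v0d2 rose (log2 fold change 0.46), Acp5 fell (-0.75) and Ctsk did not pass the test. Oscar was too low to test, and Calcr had no read in any library. The summed osteoclast markers were 384 to 395 CPM in control and 486 to 519 CPM in MAARS gapmeR libraries, and their part in the Tnfrsf11a result was not tested.

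Tnfrsf14 encodes HVEM, a receptor of LIGHT and of lymphotoxin alpha, and lies on chromosome 4 from 154921933 to 154928563 on the minus strand. It had 8.8, 14.7, 15.8 and 11.9 CPM in control and 13.1, 10.0, 9.73 and 9.61 CPM in MAARS gapmeR libraries. Control replicate 2 was the lowest and MAARS gapmeR replicate 9 stood above the rest of its group, so the groups overlapped. The log2 fold change of -0.27 (SE 0.17, adjusted p = 0.22 from edgeR) did not pass the test with all libraries. Without control replicate 2 it was -0.41 with an edgeR adjusted p of 0.0303, and over the other alternatives the adjusted p lay above 0.05.

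Tnfrsf26 belongs to a mouse cluster of short receptors on chromosome 7 together with Tnfrsf22 and Tnfrsf23, and lies from 143607659 to 143628722 on the minus strand. Tnfrsf22 and Tnfrsf23 encode decoy receptors of TRAIL. Tnfrsf26 had 29.6, 24.6, 26.2 and 28.3 CPM in control and 15.8, 17.4, 14.5 and 20.9 CPM in MAARS gapmeR libraries, a log2 fold change of -0.66 (SE 0.106, adjusted p = 0.000455 from edgeR). Tnfrsf23 had 23.2, 22.9, 21.9 and 24.0 CPM in control and 13.5, 14.6, 16.9 and 16.4 CPM in MAARS gapmeR libraries, a log2 fold change of -0.58 (SE 0.0799, adjusted p = 0.000157 from edgeR). Both genes fell without overlap between groups. Tnfrsf22, which lies between them, had 5.63, 5.09, 5.84 and 5.74 CPM in control and 4.49, 4.85, 4.09 and 6.02 CPM in MAARS gapmeR libraries, and its log2 fold change of -0.19 did not pass the test (interval from -0.49 to 0.10, edgeR adjusted p = 0.26). These 3 genes are related in sequence and reads could have been split between them. Their sum, 52.6 to 58.4 CPM in control and 33.8 to 43.3 CPM in MAARS gapmeR libraries, did not overlap between groups. An antisense gene covers 3.33% of the exons of Tnfrsf26, and no gene on the same strand overlaps them.

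**Figure D2:**
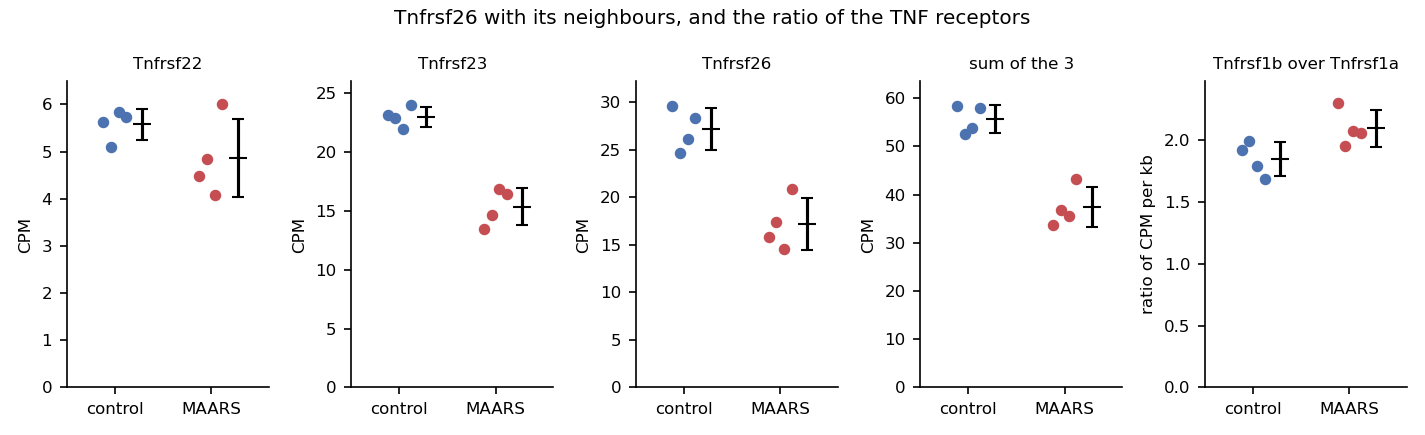
CPM of Tnfrsf22, Tnfrsf23, Tnfrsf26 and their sum, and the ratio of Tnfrsf1b to Tnfrsf1a per exon length, in the 4 control (blue) and 4 MAARS gapmeR libraries (red), with the mean and SD in black and every vertical axis from 0. The sum of the 3 neighbours lies at 33.8 to 43.3 CPM in red and 52.6 to 58.4 CPM in blue, and the ratios meet between 1.95 and 1.99.

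Levels of different genes were compared per exon length, as CPM per kb of exon. In the control libraries Tnfrsf1b was highest at 144 ± 10.1 CPM per kb, followed by Tnfrsf1a at 78.3 ± 6.92, Ltbr at 43.6 ± 2.65, Tnfsf12 at 33.4 ± 2.03 and Tnfrsf11a at 14.4 ± 0.594 CPM per kb (SD, n = 4 each). Next came Tnfrsf14 at 8.9 ± 2.18, Tnfrsf26 at 8.43 ± 0.686 and Tnf at 7.77 ± 1.05 CPM per kb, 3 neighbours in the order whose ranges overlapped. Tnfsf9 at 0.913 ± 0.214 and Tnfsf13b at 0.312 ± 0.0628 CPM per kb were the lowest. Apart from Tnfsf12, the ligands were thus below every receptor in mean level, although Tnf overlapped the lowest of them. In the MAARS gapmeR libraries the order was the same, but the ranges of Tnfrsf14, Tnfrsf26 and Tnf no longer overlapped and those of Ltbr and Tnfsf12 did. Tnf was then at 3.45 ± 0.321 and Tnfrsf1b at 132 ± 9.27 CPM per kb. Summed in CPM, the 4 ligands were at 62.8 to 69.3 in control and 60.1 to 65.4 in MAARS gapmeR libraries, most of it Tnfsf12, and the 6 receptors were at 906 to 1037 and 817 to 892.

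**Figure D3:**
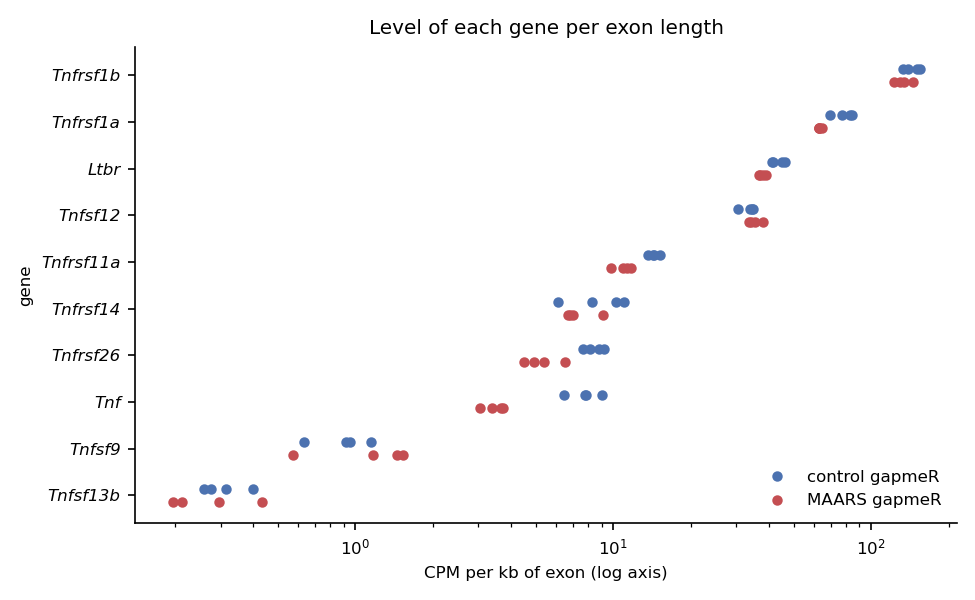
Level of the 10 genes in CPM per kb of exon (horizontal log axis) in each control gapmeR library (blue) and MAARS gapmeR library (red), ordered by the control mean. Levels run from Tnfsf13b, with a control mean of 0.312, to Tnfrsf1b, with a control mean of 144 CPM per kb.

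Among the genes for binding partners of these proteins, 1 rose, 2 fell, 2 did not pass the test and 5 were too low to test. Over all genes tested, 24.0% fell and 21.3% rose. Tnfrsf13b, encoding TACI, a receptor of BAFF, rose from 47.8 ± 1.66 to 56.8 ± 4.12 CPM (mean ± SD, n = 4), which was a log2 fold change of 0.25 (SE 0.0587, adjusted p = 0.00552 from edgeR). Tnfrsf12a, encoding Fn14, had a log2 fold change of -0.05 (edgeR adjusted p = 0.812), and Tnfrsf11b, encoding the RANKL decoy osteoprotegerin, 0.13 (edgeR adjusted p = 0.732). Tnfrsf11b was highest in control replicate 7 and MAARS gapmeR replicate 13, the libraries highest in stromal markers. Tnfsf14, encoding LIGHT, a ligand of HVEM and of the lymphotoxin beta receptor, fell from 1.59, 1.22, 1.68 and 1.96 CPM to 0.567, 0.358, 0.964 and 0.563 CPM, on 9 to 40 counts per library. Its log2 fold change was -1.40 (SE 0.296, adjusted p = 0.0027 from edgeR). Ltb, encoding lymphotoxin beta and lying 3060 bases from Tnf, fell by 0.60 on the log2 scale (SE 0.202, adjusted p = 0.0311 from edgeR), a call that was lost in 6 of its alternatives. Lta, 1157 bases from Tnf, and Tnfsf11, encoding RANKL, were too low to test, with at most 11 and 3 counts in a library. The same held for Tnfrsf9, Tnfrsf13c and Tnfrsf17, with at most 7, 1 and 4 counts, so no change in these was detectable at this depth.

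Over the superfamily's other genes, partners just described included, 6 of 14 ligand genes were tested and 5 of them fell, with none higher. These 5 include Tnfsf14 and Ltb, and the call of Ltb was lost in 6 alternatives. Tnfsf10, encoding the death ligand TRAIL, went from 12.7, 15.6, 20.6 and 18.4 CPM to 1.28, 2.23, 4.18 and 1.95 CPM, a log2 fold change of -2.81 (SE 0.266, adjusted p = 1.35e-05 from edgeR). Tnfsf8, the ligand of CD30, had a log2 fold change of -1.90 and Tnfsf15 of -2.09. Tnfsf8 had 35 to 68 counts per control library and 9 to 21 per MAARS gapmeR library, and Tnfsf15 had 15 to 33 and 4 to 9. Tnfsf15 thus met the filter's minimum of 10 counts in its control libraries only. A gene tested in this way could hardly be called higher, so its fall adds little to the count or to the median of the ligands. Among 22 other receptor genes 13 were tested, of which 4 fell and 2 rose, Tnfrsf13b among them (3 rose with upper-quartile factors). The costimulatory receptor gene Cd40 went from 11, 11.4, 17.2 and 12 CPM to 3.64, 4.73, 4.32 and 2.51 CPM, a log2 fold change of -1.76 (SE 0.196, adjusted p = 3.88e-05 from edgeR). Tnfrsf8, which encodes CD30, fell by 1.16 on the log2 scale. The median log2 fold change was -1.65 over the 6 ligands and -0.05 over the 13 receptors, beside 0.0080 over all genes tested. Under upper-quartile factors the median was 0.013 over the 13 receptors and 0.0707 over all genes tested. The shares called over all genes tested were 24.0% lower and 21.3% higher, and upper-quartile factors gave 2379 lower and 3622 higher of 13051.

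**Figure D4:**
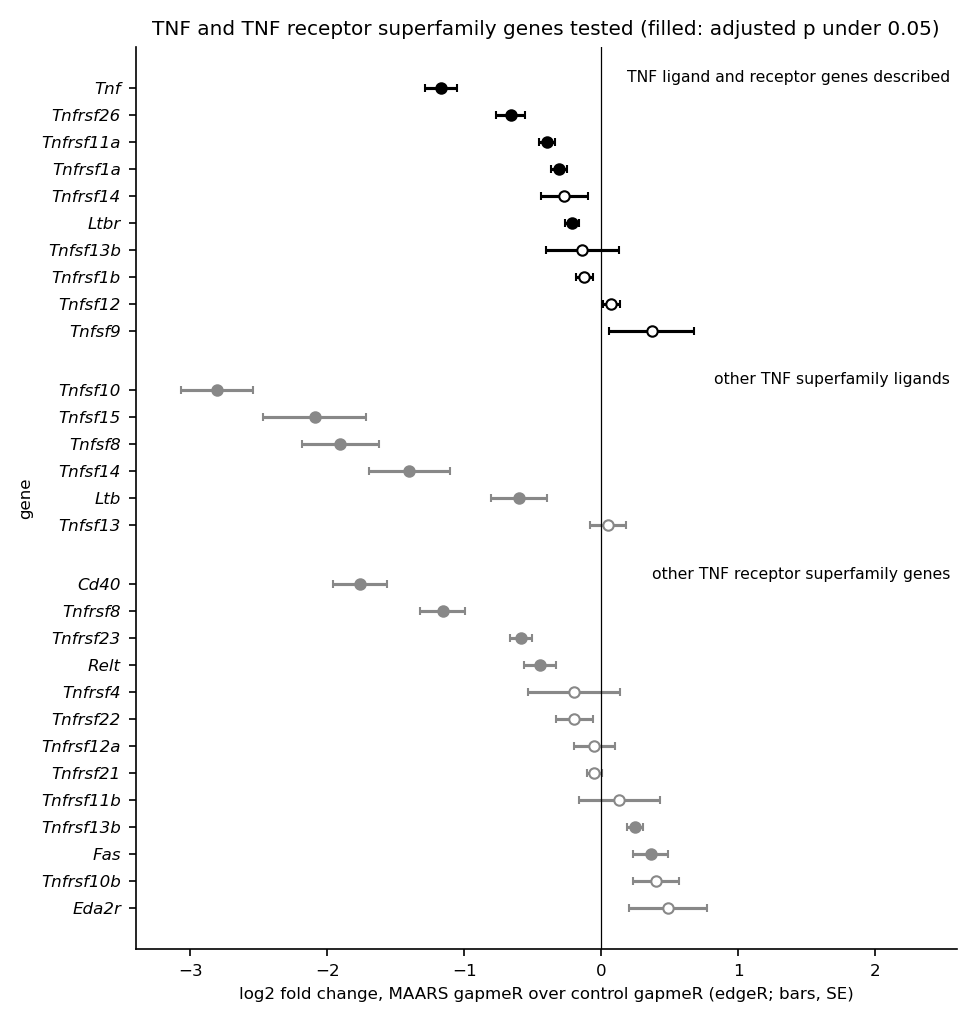
Log2 fold change with MAARS gapmeR over control gapmeR (horizontal axis, bars are SE from edgeR) of the 10 genes (black) and of the other TNF and TNF receptor superfamily genes tested (grey), filled where the adjusted p was under 0.05. Tnfsf10 at -2.81 and Cd40 at -1.76 lie farthest left in their groups, and Tnf at -1.17 among the 10 genes.

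Of 30 genes of the TNF receptor signalling complex, all tested, 17 fell, 2 rose and 11 did not pass the test. Over all genes tested, 24.0% fell and 21.3% rose. The median log2 fold change of the 30 genes was -0.15. With upper-quartile factors 14 of the 30 fell and 3 rose, beside 2379 lower and 3622 higher of all 13051 genes tested. The 3 with the smallest p were regulators of NF-kappaB signalling from the receptor. Tnip1, which encodes a ubiquitin-binding inhibitor that partners A20, had a log2 fold change of -0.41 (SE 0.0416, adjusted p = 2.09e-05 from edgeR). Rnf31, the catalytic subunit of the linear ubiquitin ligase, had -0.56, and Tnfaip3, which encodes A20, had -0.65. The signalling genes Tradd, Ripk1 and Ikbkb did not pass the test, with log2 fold changes of 0.15, -0.08 and -0.06, beside the 17 that fell. Map3k5 and Tab1, the 2 genes that rose, had log2 fold changes of 0.35 and 0.33.

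Of 7 shedding genes, 2 were higher, 2 were lower and 3 did not pass the test (median log2 fold change 0.10), shares near those of all genes tested (21.3% higher and 24.0% lower). Adam17, the protease that frees TNF, had a log2 fold change of 0.10 (edgeR adjusted p = 0.29). The iRhoms that carry ADAM17 to the cell surface went in opposite directions. Rhbdf2, the more abundant of the pair in CPM, fell from 72.5 ± 6.61 to 50.7 ± 1.93 CPM and Rhbdf1 rose from 2.97 ± 0.515 to 5.74 ± 0.235 CPM (mean ± SD, n = 4), giving log2 fold changes of -0.52 and 0.95 (edgeR adjusted p = 8.77e-05 and 0.000223). Sppl2a, an intramembrane protease that cuts the stump of TNF left in the membrane, had a log2 fold change of -0.53 (edgeR adjusted p = 0.000311). Its relative Sppl2b, the other gene of the list that rose, had 0.23 (edgeR adjusted p = 0.0199).

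Of 12 genes for regulators of the Tnf message, 6 fell, 3 rose and 3 did not pass the test (median log2 fold change -0.06). Over all genes tested, 24.0% fell and 21.3% rose. With upper-quartile factors 4 of the 12 fell and 4 rose, and their median was 0.0070. Over all 13051 genes tested, those factors gave 2379 lower and 3622 higher and a median of 0.0707. Khsrp, which encodes a protein that promotes decay of AU-rich messages, rose by 23.2% in mean CPM, with a log2 fold change of 0.30 (SE 0.0428, adjusted p = 0.000205 from edgeR). Zfp36, encoding tristetraprolin, which binds AU-rich motifs of this kind and destabilizes the Tnf message, had a log2 fold change of -0.38 (edgeR adjusted p = 0.0015). Also on this list, Zfp36l1 had a log2 fold change of 0.36 and Zc3h12a of -0.65 (edgeR adjusted p = 0.0104 and 0.00146). Mapkapk2, encoding MK2, the kinase that restrains tristetraprolin, had -0.26, and Rc3h2, encoding the message-decay factor roquin-2, had -0.29. Elavl1, encoding HuR, a stabilizer of AU-rich messages, had a log2 fold change of 0.03 (edgeR adjusted p = 0.61) and levels of 45.9 to 47.9 CPM in control and 44.5 to 50.1 CPM in MAARS gapmeR libraries.

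Of 25 genes that TNF induces through NF-kappaB, 21 were tested, of which 13 fell, 1 rose and 7 did not pass the test. Over all genes tested, 24.0% fell and 21.3% rose. The median log2 fold change of the 21 genes was -0.47. This list shares Tnfaip3, Birc3 and Traf1 with the signalling complex, and several of its genes, Cxcl10 among them, are also known targets of interferon. Cxcl10, a chemokine gene, went from 17.9, 26.6, 43.1 and 36.3 CPM to 0.898, 0.954, 2.2 and 0.866 CPM, a log2 fold change of -4.66 (SE 0.337, adjusted p = 5.27e-06 from edgeR). Ccl2 fell by 1.90 and Sod2, encoding mitochondrial superoxide dismutase, by 0.48 on the log2 scale. Tnfaip2, Nfkb1 and Nfkb2 had log2 fold changes of 0.10, 0.08 and -0.10 and did not pass the test, and Ier3 rose by 0.42.

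**Figure D5:**
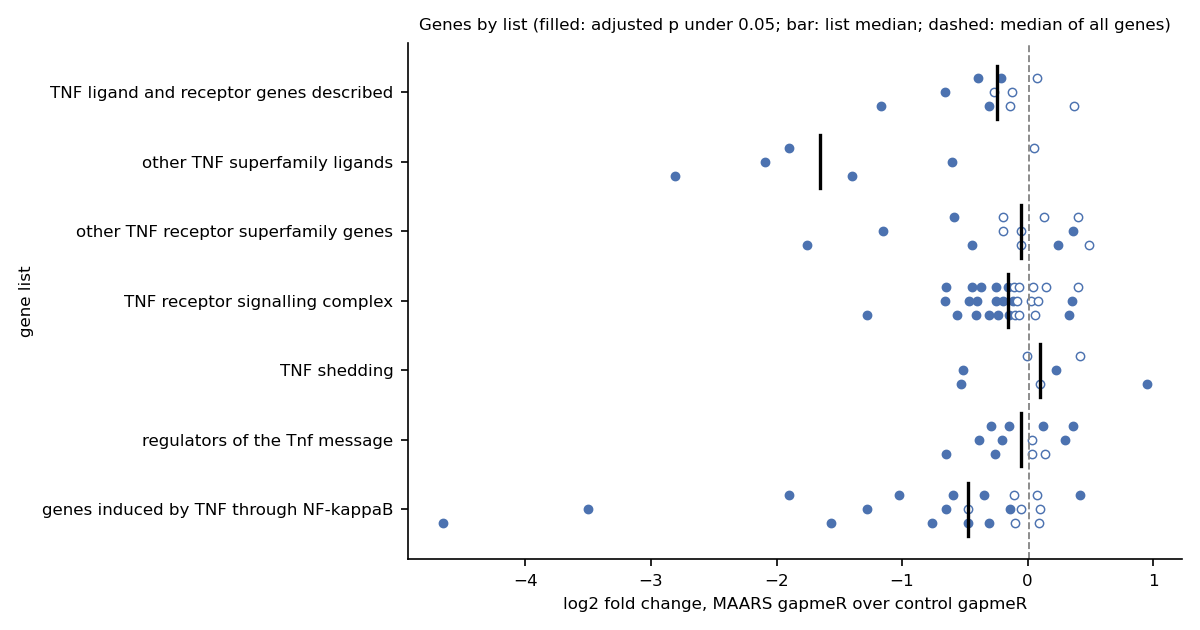
Log2 fold change with MAARS gapmeR over control gapmeR (horizontal axis) of each gene tested in 7 lists, filled where the adjusted p was under 0.05. Black bars are list medians, from -1.65 for the other ligands to 0.10 for the shedding genes, and the dashed line is the median of all genes tested, 0.0080.

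The genes whose pattern over the 8 libraries was most like that of Tnf were Perm1, Gm20559, Glrx and Ccdc86. Their log2 CPM, centred on each gene's own mean, differed from that of Tnf by 0.0654, 0.0822, 0.0828 and 0.0879 on average in absolute terms. Their log2 fold changes were -1.26, -1.04, -1.18 and -1.19, beside -1.17 for Tnf. The 8 libraries hold a single contrast, so any gene that fell by a like amount scores as alike.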

How the data were processed

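Ribodepleted RNA of mouse BMDMs, 4 control gapmeR and 4 MAARS gapmeR libraries, was read as pairs of 100 nt. The authors trimmed reads with Trimmomatic 0.36, aligned them with STAR 2.5.2b to mm10 with Ensembl transcripts and ran featureCounts (Subread 1.5.2) to count reads per gene; the deposited values are these raw counts. The strand setting and how multimapping reads were handled are not given in the sources used here, so counts of overlapping genes and near copies carry that uncertainty. Groups followed the labels. Whether the cultures came from separate animals is not stated, so p-values measure the spread between these samples, which may be technical.

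From the counts, R 4.3.3 and edgeR 4.0.16 were used: filterByExpr (minimum count 10, minimum total 15), TMM factors, glmQLFit and glmQLFTest, with Benjamini-Hochberg adjustment over 13051 genes, and genes called at an adjusted p under 0.05. CPM are TMM-normalized, intervals are 95% from the same fit, and exon lengths, positions and overlaps are from GENCODE M21 on GRCm38. The SE of a log2 fold change was obtained from its size and the F statistic. With 4 against 4 libraries, the two-sided exact permutation test reaches at best p = 0.0286, the value of each gene with no overlap. Alternatives were RLE or upper-quartile factors, DESeq2 1.42.0, limma-voom (limma 3.58.1), no filter, a minimum mean of 10 counts, each library left out, and stricter thresholds. The fit without control replicate 7 and MAARS gapmeR replicate 13, the sums over overlapping or related genes, the ratio of Tnfrsf1b to Tnfrsf1a, and the motifs were chosen after seeing the data. The procedure was tested on simulated data with 200 changed genes, as many higher as lower. Such data do not test the choice of scaling factors. The genes described and the lists were chosen with earlier results of these data known. Named genes are the 10 described, MAARS, 3 genes of each other list (smallest p), the binding partners, the neighbours of Tnfrsf26, and the 4 genes most like Tnf by mean absolute difference of log2(CPM + 0.5) centred per gene. Other genes with values were named after their values were seen. These were Tradd, Ripk1, Ikbkb, Map3k5, Tab1, Adam17, Sppl2b, Zfp36, Zfp36l1, Zc3h12a, Elavl1, Tnfaip2, Nfkb1, Nfkb2, Ier3 and the marker genes.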

Additional observations from a re-analysis of the deposited data

Results flagged for a closer look

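In 7 of 80 groups of 4 libraries, taken over 40 named genes, the highest or lowest library lay far from the others for the range of its group, where chance gives about 5 in 100. Among the 10 genes described these were Tnfrsf1a in MAARS gapmeR replicate 13, at 166.8 CPM beside 162.4 to 163.1 CPM, and Tnfrsf14 in MAARS gapmeR replicate 9, at 13.1 CPM beside 9.61 to 10.0 CPM. Tnfrsf11b in control replicate 7 was at 4.17 CPM beside 2.05 to 2.39 CPM. Tnfsf8 in MAARS gapmeR replicate 15 was at 0.39 CPM beside 0.803 to 0.872 CPM, and Cd40 in control replicate 6 at 17.2 CPM beside 11 to 12 CPM. Cxcl10 in MAARS gapmeR replicate 13 was at 2.2 CPM beside 0.866 to 0.954 CPM, and Sod2 in MAARS gapmeR replicate 11 at 58.9 CPM beside 54.8 to 55.3 CPM.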

How the results depend on the processing

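The calls of Tnf, Tnfrsf1a, Tnfrsf11a, Tnfrsf26 and Ltbr held with RLE and upper-quartile factors, DESeq2, limma-voom, no filter, a minimum mean of 10 counts, an adjusted p under 0.01, and each library left out, and also without control replicate 7 and MAARS gapmeR replicate 13 together. With a fold change of at least 1.5 also required, 2 of the 10 genes and 1782 of all genes were called, in place of 5 and 5919. Over the fits that left out 1 library, 5 to 6 of the 10 genes and 5097 to 5621 of all genes were called, the sixth being Tnfrsf14 without control replicate 2. The log2 fold changes of 3 uncalled genes changed sign. Over the fits that left out 1 library, that of Tnfsf13b ranged from -0.41 to 0.0078 (0.0062 without control replicate 7), that of Tnfrsf12a from -0.16 to 0.079 (0.041 without MAARS gapmeR replicate 9), and that of Tnfrsf11b from -0.085 to 0.43. Tnfrsf12a was at 0.013 with upper-quartile factors and 0.0089 without control replicate 7 and MAARS gapmeR replicate 13. The cause was not tested. No paired analysis was possible because the groups share no replicate numbers. Lta, Tnfsf11, Tnfrsf9, Tnfrsf13c and Tnfrsf17, with at most 11 counts in a library, were too low to test.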
